A study of Homo sapiens with 9 samples.

Results

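Chromatin accessibility at the CDK inhibitor genes was examined in MDA-MB-231 cells, a human triple-negative breast cancer (TNBC) line of the basal B type. The 7 genes are CDKN1A, CDKN1B and CDKN1C, which encode p21, p27 and p57 of the CIP/KIP family, and CDKN2A, CDKN2B, CDKN2C and CDKN2D, which encode p16, p15, p18 and p19 of the INK4 family. They were taken by name, all 7 of them, from 20033 protein-coding genes with an Ensembl canonical transcript. ATAC-seq, in which the Tn5 transposase cuts open chromatin, gave 1 peak list for each of 9 libraries. Of these, 2 were from shCtrl cells, 2 from shEZH2 cells, 2 from shE2F1 cells and 1 from shSUZ12 cells, all infected with shRNA lentivirus for 24 h and then kept in puromycin at 2 μg/ml for 72 h. The remaining 2 libraries were from cells given DMSO or GSK126, an inhibitor of the EZH2 methyltransferase, for 72 h. All groups are of this single line, and nothing states that same-group libraries came from separate cultures, so their spread may be technical. A peak list does not show how far EZH2, E2F1 or SUZ12 was depleted.

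CDK inhibitors hold the cell cycle in G1. The INK4 proteins bind CDK4 and CDK6 and keep cyclin D away from them, whereas the CIP/KIP proteins bind cyclin-CDK complexes, above all those of CDK2, so that RB1 stays unphosphorylated and E2F factors stay bound to it. CDKN2A and CDKN2B lie side by side on the short arm of chromosome 9, where PRC2, the complex of EZH2 and SUZ12, is known to silence them in many proliferating cells and where deletions are frequent in tumors. CDKN1C is an imprinted gene and another known PRC2 target.

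The lists held 58626 to 85812 peaks, fewest in shEZH2 replicate 2 and most in shE2F1 replicate 2. The most frequent background value of a list, which scales with its depth, ran from 1.41 tags in shEZH2 replicate 2 to 2.18 tags in shE2F1 replicate 2. Values are therefore given as percentiles of fold enrichment within a list, the summit signal over its local background, so that 50 is the median peak of that list. A promoter is the stretch 1 kb on either side of the canonical TSS and takes the value of its strongest peak. The promoters of the basal B markers VIM, CD44, CAV1 and AXL carried a peak in all 9 lists, with 62 to 231 tags at the summit. Of the luminal markers, GATA3 had none, and ESR1, CDH1, PGR and FOXA1 had one in 7 or 8 lists with 11 to 42 tags. By percentile of fold enrichment the 2 sets overlapped. Median percentiles over the lists with a peak were 44.4 for CD44, 40.2 for VIM, 37.7 for CAV1 and 18.1 for AXL. They were 25.1 for ESR1, 16.1 for PGR, 12.8 for CDH1 and 5.59 for FOXA1.

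A promoter peak was found in all 9 lists for 5 of the 7 genes, CDKN1A, CDKN1B, CDKN1C, CDKN2C and CDKN2D. CDKN2A and CDKN2B had none in any list. Over all protein-coding genes, 60% of promoters had a peak in every list and 29.1% in no list. The same 5 genes were found with windows of 500 bp or 2 kb, with any annotated start, or with peaks of −log10 q of at least 5.

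The 250 bases before the start sites are printed here for 4 of the 5 genes whose promoters were open in every list, CDKN1C not being shown, and for both genes without a peak, because the sequences of the latter have the makeup of promoters that were usually open. They are RefSeq sequences on GRCh38.p14, written 5′ to 3′ on the strand of the gene, with GC boxes (GGGCGG) and CCAAT boxes (CCAAT) on either strand in capitals. CDKN2C is shown at its canonical start and at the start next upstream of it, near which its promoter summits lay, and CDKN2A at its canonical start.
CDKN1A, chr6:36678464-36678713, plus strand: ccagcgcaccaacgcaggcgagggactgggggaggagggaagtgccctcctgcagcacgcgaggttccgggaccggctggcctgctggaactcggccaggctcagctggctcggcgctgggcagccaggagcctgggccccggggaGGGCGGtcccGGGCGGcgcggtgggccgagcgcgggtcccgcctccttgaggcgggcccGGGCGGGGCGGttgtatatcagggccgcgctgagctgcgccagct
CDKN1B, chr12:12717118-12717367, plus strand: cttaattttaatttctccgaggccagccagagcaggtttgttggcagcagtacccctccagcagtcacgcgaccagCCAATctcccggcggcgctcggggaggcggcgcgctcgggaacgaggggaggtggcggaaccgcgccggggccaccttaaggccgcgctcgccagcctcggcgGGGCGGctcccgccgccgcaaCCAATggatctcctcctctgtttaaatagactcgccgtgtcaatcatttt
CDKN2C upstream start, chr1:50968456-50968705, plus strand: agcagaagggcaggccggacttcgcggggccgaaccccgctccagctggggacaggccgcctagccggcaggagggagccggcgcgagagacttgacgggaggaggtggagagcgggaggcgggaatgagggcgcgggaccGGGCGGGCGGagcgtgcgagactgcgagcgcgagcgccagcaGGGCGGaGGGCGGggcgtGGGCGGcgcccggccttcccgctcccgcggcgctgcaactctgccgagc
CDKN2C canonical start, chr1:50969995-50970244, plus strand: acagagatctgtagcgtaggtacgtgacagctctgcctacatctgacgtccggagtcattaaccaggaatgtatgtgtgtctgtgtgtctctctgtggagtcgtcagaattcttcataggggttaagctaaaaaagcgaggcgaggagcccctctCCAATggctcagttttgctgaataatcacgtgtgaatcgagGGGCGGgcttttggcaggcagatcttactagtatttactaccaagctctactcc
CDKN2D, chr19:10568980-10569229, minus strand: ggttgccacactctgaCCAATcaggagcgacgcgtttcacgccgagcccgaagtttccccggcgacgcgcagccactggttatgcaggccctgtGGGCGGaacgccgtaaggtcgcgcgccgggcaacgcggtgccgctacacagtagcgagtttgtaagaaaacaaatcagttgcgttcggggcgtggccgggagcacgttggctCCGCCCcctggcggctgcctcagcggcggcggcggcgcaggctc
CDKN2A, chr9:21974858-21975107, minus strand: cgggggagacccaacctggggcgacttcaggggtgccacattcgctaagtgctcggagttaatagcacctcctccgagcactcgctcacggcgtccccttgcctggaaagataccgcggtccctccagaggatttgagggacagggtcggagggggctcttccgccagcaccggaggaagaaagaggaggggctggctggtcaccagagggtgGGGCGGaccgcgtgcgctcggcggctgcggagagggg
CDKN2B, chr9:22009306-22009555, minus strand: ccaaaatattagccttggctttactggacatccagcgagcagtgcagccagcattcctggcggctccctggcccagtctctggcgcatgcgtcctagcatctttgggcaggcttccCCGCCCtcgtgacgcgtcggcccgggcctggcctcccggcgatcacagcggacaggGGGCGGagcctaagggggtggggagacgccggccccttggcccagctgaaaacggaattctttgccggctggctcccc
GC boxes numbered 4 before CDKN1A, 5 before the upstream start of CDKN2C, 2 before CDKN2D and 2 before CDKN2B, and 1 each before CDKN1B, CDKN2A and the canonical start of CDKN2C. The windows before the farthest upstream RefSeq starts of CDKN2C (chr1:50960495-50960744) and CDKN2A (chr9:21995325-21995574), not printed, held 0 GC boxes, 0 CCAAT boxes, and 7 and 24 CpG dinucleotides. Of 35116 RefSeq promoters, 42.6% held a GC box in such a window. CDKN1B had 2 CCAAT boxes, and CDKN2D and the canonical start of CDKN2C had 1 each, against 32.0% of all promoters with at least 1. The letters of an E2F site (TTTGGCGC, TTTCCCGC, TTTGCCGC or TTTCGCGC), present in 2.79% of promoters, and of a TATA box (TATAAA), present in 10.7%, were in none of these windows. CpG dinucleotides numbered 20 before CDKN2A and 18 before CDKN2B, against a median of 11 over all promoters, 33 before CDKN2D and 10 before the canonical start of CDKN2C.

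CDKN2A (ENSG00000147889.18, chr9:21967752-21974857 in GRCh38 for the canonical transcript, as for the other genes, minus strand, 3 exons) and CDKN2B (ENSG00000147883.12, chr9:22002903-22009305 in GRCh38, minus strand, 2 exons) lay within one long stretch of chromosome 9 without a peak. No list held a peak within 100 kb of either start, a property of 648 protein-coding genes (3.23%), whereas the median gene had 14 peak regions within that distance. No peak fell within 1 kb of any of the 13 annotated starts of CDKN2A, among them the start that gives ARF, or of the 3 of CDKN2B. In the 9 lists together the stretch ran from chr9:20756224 to chr9:24912910 in GRCh38, a length of 4.16 Mb. It reached 1.22 Mb below the CDKN2A start and 2.90 Mb above the CDKN2B start, and the assembly has no gap bases in it.

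**Figure D1:**
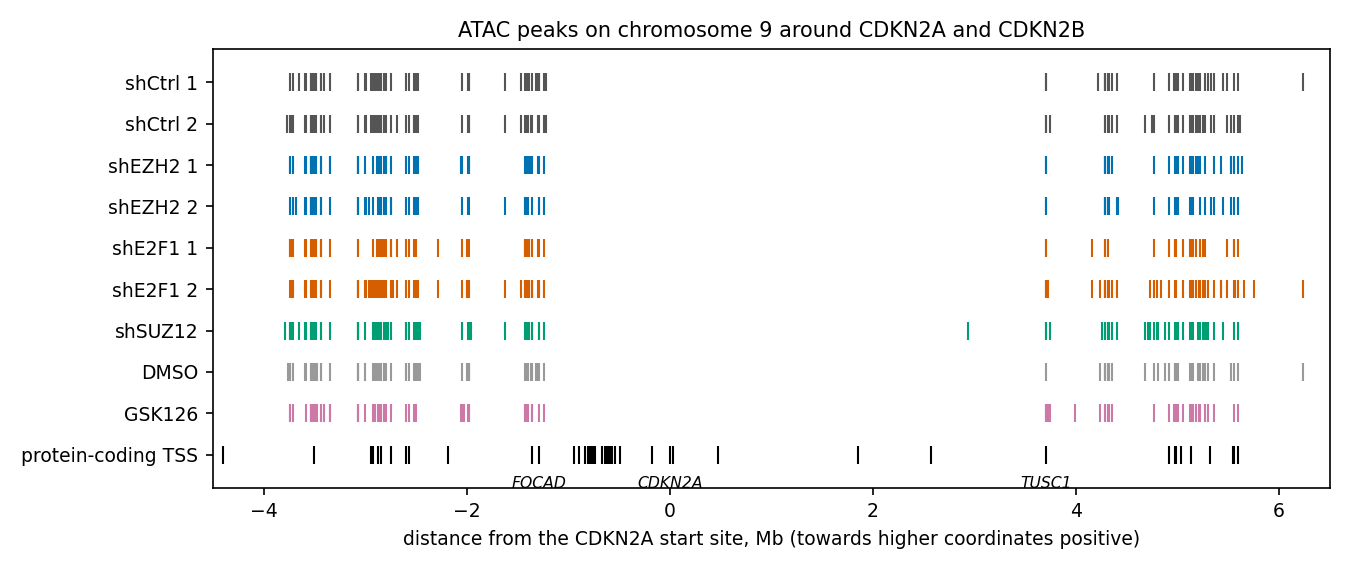
ATAC peaks (vertical ticks at the summits) in each of the 9 lists along chromosome 9, by distance in Mb from the CDKN2A start site, with protein-coding start sites in the bottom row. All 9 rows are empty from within FOCAD to at least 2.90 Mb above CDKN2B, and in 8 of them the next peak is at TUSC1.

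The near edge of the stretch lay in introns of FOCAD. A region at chr9:20731999-20732874 had a peak in all 9 lists, and one at chr9:20755834-20756223 had a peak in the shCtrl lists alone, at percentiles of 24.5 and 42.2. At the far edge, chr9:24912911-24913128 had a peak in the shSUZ12 list alone, at percentile 35.8. The other 8 lists stayed empty up to the promoter of TUSC1 at chr9:25677399-25678741, which was open in all 9 lists at percentiles of 65.8 to 80.8. Each list by itself gave a length of 4.18 Mb (shSUZ12) to 4.94 Mb.

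The stretch holds the starts of 24 protein-coding genes. They are HACD4, the interferon genes IFNB1, IFNW1, IFNE and the IFNA cluster, KLHL9, MTAP, which encodes a methionine salvage enzyme next to CDKN2A, both CDK inhibitor genes, DMRTA1, ELAVL2 and IZUMO3. Of these promoters, 6 are CpG-rich (HACD4, KLHL9, MTAP, CDKN2A, CDKN2B and DMRTA1), meaning a GC content of at least 50% and an observed over expected CpG of at least 0.6 in 1 kb. Among all 12976 CpG-rich promoters, 81.0% had a peak in all 9 lists and 10.9% in none, while among the other 7057 promoters 21.5% had a peak in every list and 62.5% in none. The interferon promoters are of the second kind, whose emptiness is common.

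Among 3968 stretches of more than 100 kb on the autosomes and X, this one ranked 13 by length and 3 among those without gap bases. By its number of CpG-rich start sites it shared rank 2. Chromosome 9 as a whole had 36.1 regions per Mb, near the 38.4 per Mb of the genome. MDA-MB-231 is known as a line that has lost CDKN2A. Peak lists hold no read depth outside peaks and start at a −log10 q of 2.00, so missing DNA and closed chromatin cannot be told apart here, and none of the knockdowns, nor GSK126, came with a peak at either gene.

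The 5 open promoters lay in the middle of the lists by fold enrichment. Their median percentiles over the 9 lists were 62.0 for CDKN2D, 56.1 for CDKN2C, 44.5 for CDKN1B, 39.0 for CDKN1A and 28.4 for CDKN1C. Every pair of neighbours in this order overlapped in range, and the upper gene was the higher one in 6, 8, 6 and 6 of 9 lists. A rank by tags at the summit gave another order. By tags, CDKN1A stood at the top, at percentiles of 99.6 or above in every list.

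**Figure D2:**
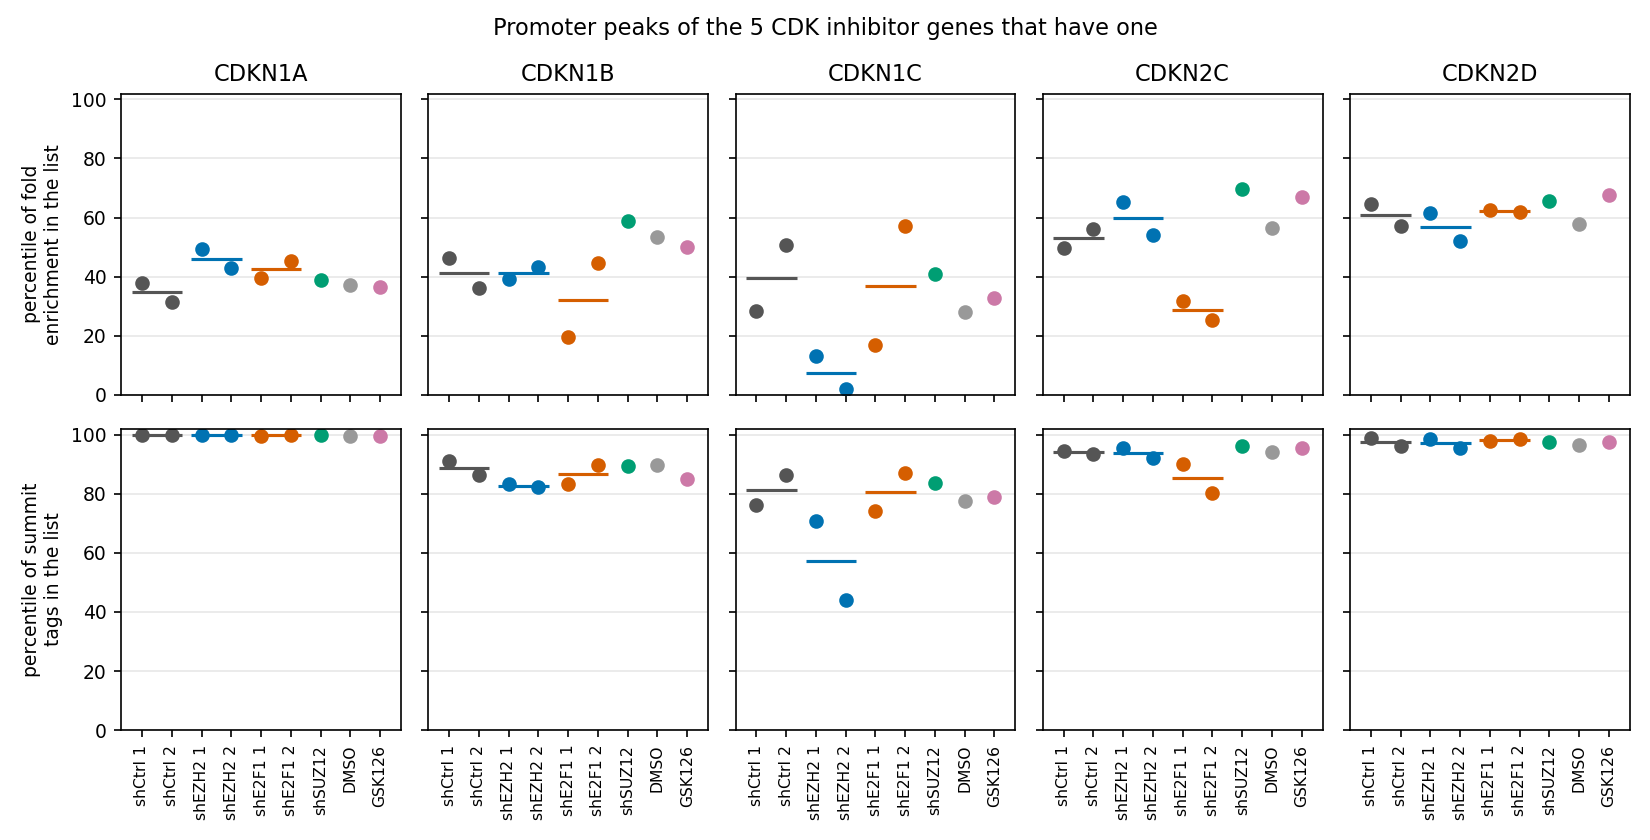
Percentile within the list of fold enrichment (top) and of the number of tags at the summit (bottom) for the strongest promoter peak of each gene, 1 point per library, with the mean of the 2 libraries as a line for shCtrl, shEZH2 and shE2F1. CDKN1C is lowest in both shEZH2 libraries in the 2 rows, and CDKN2C in both shE2F1 libraries, from another peak than in shCtrl. CDKN1A is near the top of the tag scale throughout.

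CDKN1A (ENSG00000124762.14, chr6:36678714-36687332 in GRCh38, plus strand, 3 exons) encodes p21, the inhibitor induced by p53 and by many other signals. Its promoter peak had percentiles of fold enrichment of 37.8 and 31.5 in shCtrl, 49.4 and 42.8 in shEZH2, 39.5 and 45.5 in shE2F1, 39.0 in shSUZ12, 37.2 with DMSO and 36.4 with GSK126. Both knockdown groups lay above both shCtrl libraries. The background around CDKN1A was high, at 14.5 to 30.1 times the most frequent value of the list, and 133 to 357 tags at the summit became a fold enrichment of only 5.58 to 6.71. That local background was 23.6 and 26.5 times the most frequent value in shCtrl, 19.7 and 21.0 times in shEZH2, and 14.5 and 19.0 times in shE2F1. It was thus lower in all 4 knockdown libraries than in both shCtrl libraries. The same held for the local backgrounds at CDKN1B, CDKN1C, CDKN2C and CDKN2D, so this was not particular to CDKN1A. The share of all promoters with a lower local background was not computed. Fold enrichment itself was 5.95 and 5.58 in shCtrl, 6.71 and 6.499 in shEZH2, and 5.91 and 6.25 in shE2F1, so that for shE2F1 it overlapped shCtrl and only the percentile within the list was higher in both libraries.

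The mean percentile of CDKN1A was 46.1 ± 4.63 (SD, n = 2) in shEZH2 against 34.7 ± 4.49 in shCtrl, a difference of 11.5 points. With 2 libraries a group, the exact two-sided permutation test cannot go below p = 0.333, the value of every non-overlapping pair of groups here. Of 12234 promoters with a peak in those 4 libraries, 10.6% had both shEZH2 values above both shCtrl values and 29.7% had both below. In lists cut to the same number of peaks the split was 23.9% higher and 14.4% lower, and the differences were 24.6 points for CDKN1A, 12.4 for CDKN1B, 20.0 for CDKN2C and 6.05 for CDKN2D, against 11.5, −0.07, 6.79 and −4.01 in the full lists. By −log10 p, CDKN1A was at 96.5 and 95.4 in shCtrl and at 99.1 and 98.5 in shEZH2, higher in both as were 4.15% of promoters. The summit in shEZH2 replicate 2 was 1773 bp downstream of the start, whereas in the other 8 lists it was 18 to 66 bp upstream.

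The sign of the difference at CDKN1A depended on the scale. Its summit tags divided by the most frequent background of the list were 143 and 150 in shCtrl, 135 and 140 in shEZH2, and 88.7 and 121 in shE2F1. On that scale CDKN1A was lower in both knockdowns, as were 80.6% of promoters for shEZH2 and 78.9% for shE2F1. The log2 ratio of means was −0.09 for CDKN1A with shEZH2 against a median of −0.43 over all promoters, and −0.48 against −0.47 with shE2F1. For shE2F1 the percentiles averaged 42.5 ± 4.18, a difference of 7.84 points from shCtrl (4.66 without shCtrl replicate 2 and 4.88 without shE2F1 replicate 2), where 19.2% of 12516 promoters were higher, and the groups overlapped when peaks were ranked by −log10 p, by which 12.4% of promoters were higher.

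CDKN1C (ENSG00000129757.15, chr11:2883218-2885775 in GRCh38, minus strand, 4 exons) encodes p57, which restrains proliferation during development. Its promoter had percentiles of 28.4 and 50.7 in shCtrl, 13.01 and 1.83 in shEZH2, 16.8 and 57.1 in shE2F1, 40.9 in shSUZ12, 28.0 with DMSO and 32.8 with GSK126. Both shEZH2 libraries lay below all other libraries, while the shE2F1 libraries stood on both sides of shCtrl. The summits held 67 and 108 tags in shCtrl and 53 and 26 in shEZH2. In every list the summit was 54 to 124 bp upstream of the start, so the same peak was compared.

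The mean of CDKN1C was 7.42 ± 7.91 in shEZH2 and 39.5 ± 15.8 in shCtrl (SD, n = 2 each), 32.1 points apart (exact permutation p = 0.333). No other CDK inhibitor promoter was lower in both shEZH2 libraries, that is 1 of 5 against the 29.7% of all promoters. Only 1.11% of promoters had a difference further below 0. Read on the tag scale, the log2 ratio was −0.97 against the median of −0.43. CDKN1C stayed lower in shEZH2 under every ranking and window tried. Leaving out a library could change only the size of the difference, which was −20.9 points without shCtrl replicate 2. In lists of the same length the difference was −18.4 points, the shEZH2 lists being shorter than those of shCtrl.

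**Figure D3:**
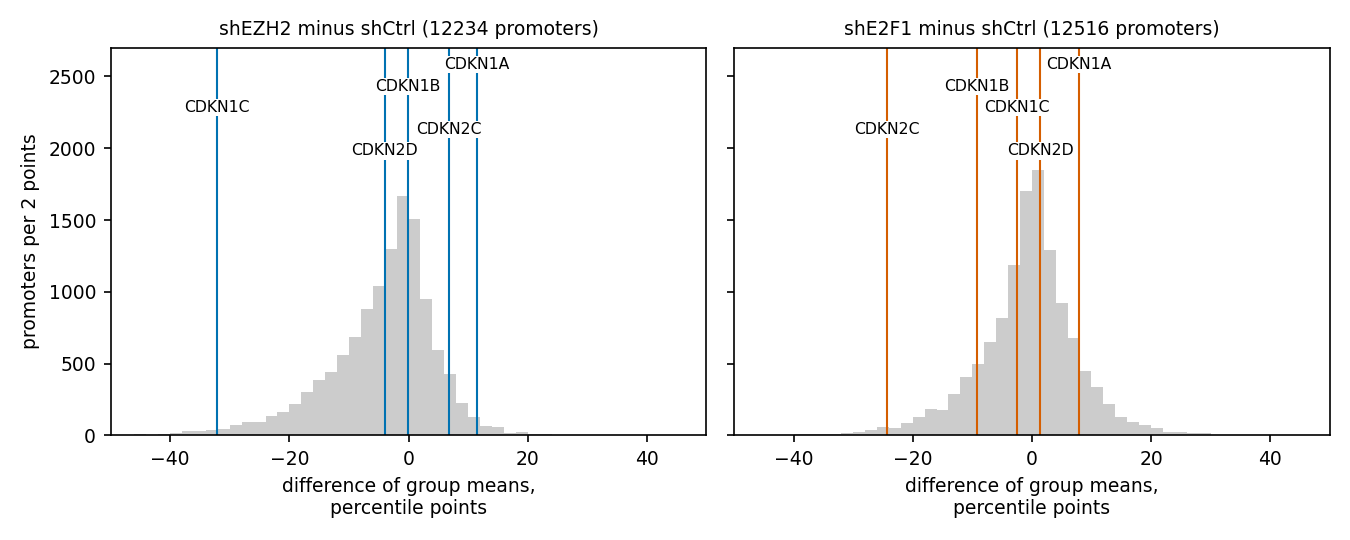
Differences in mean percentile of fold enrichment between shEZH2 or shE2F1 and shCtrl for all promoters with a peak in the 4 libraries (gray, promoters per 2 points), with the 5 CDK inhibitor promoters as lines. CDKN1C at 32.1 points below 0 with shEZH2 and CDKN2C at 24.3 points below 0 with shE2F1 stand in the tails. The CDKN2C values of shE2F1 and shCtrl come from different peaks. CDKN1A is at 11.5 and 7.84 points.

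CDKN1B (ENSG00000111276.12, chr12:12717368-12722369 in GRCh38, plus strand, 3 exons) encodes p27, the inhibitor that accumulates in resting cells and is degraded through SKP2. Its promoter, with the summit 123 to 195 bp upstream of the start, had percentiles of 46.3 and 36.2 in shCtrl, 39.2 and 43.2 in shEZH2, 19.7 and 44.5 in shE2F1, 58.7 in shSUZ12, 53.4 with DMSO and 50.04 with GSK126. The groups overlapped by fold enrichment in both knockdowns. Ranked by −log10 p, it was at 83.0 and 75.0 in shCtrl and at 72.2 and 73.0 in shEZH2, lower in both as were 42.2% of promoters.

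CDKN2C (ENSG00000123080.12, chr1:50970245-50974634 in GRCh38, plus strand, 2 exons) encodes p18, and its accessible region spans both of its neighbouring starts. A summit near the upstream start, at −1632 to −1624 bp from the canonical TSS, was found in all 9 lists, and in 6 of them it belonged to a single peak that reached the canonical TSS. In shCtrl replicate 1 and in both shE2F1 libraries the region was split, with a separate peak whose summit was 184 to 189 bp before the canonical TSS. The promoter percentiles were 49.8 and 56.1 in shCtrl, 65.4 and 54.1 in shEZH2, 31.8 and 25.4 in shE2F1, 69.7 in shSUZ12, 56.6 with DMSO and 66.9 with GSK126. The shE2F1 values were the lowest, and they belong to the peak at the canonical TSS while the values of shCtrl belong to the upstream summit.

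**Figure D4:**
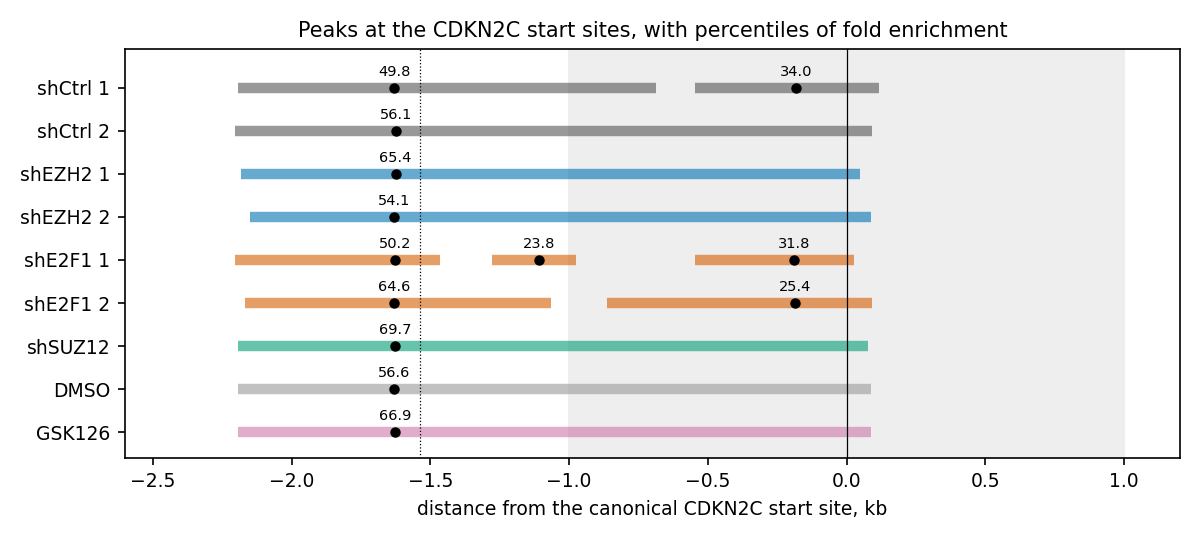
Extent of the peaks (bars), their summits (dots) and percentiles of fold enrichment in each list around CDKN2C, by distance in kb from the canonical start (solid line), with the upstream start dotted and the promoter window shaded. The upstream summit has 50.2 and 64.6 in shE2F1 and 49.8 and 56.1 in shCtrl, and only the split lists give the promoter window a peak of its own.

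By the promoter rule, CDKN2C was at 28.6 ± 4.53 in shE2F1 and 52.9 ± 4.49 in shCtrl (SD, n = 2 each), 24.3 points apart (exact permutation p = 0.333), 1 of 5 promoters lower against a background of 17%. It was also lower by −log10 p, as were 22.8% of promoters. At the upstream summit the percentiles were 50.2 and 64.6 in shE2F1 and 49.8 and 56.1 in shCtrl, so the groups overlapped, and with a window of 2 kb the difference was 4.45 points in the other direction. At the canonical TSS, shCtrl replicate 1 had a peak of its own at percentile 34.0, next to 31.8 and 25.4 in shE2F1. The values of the groups under the promoter rule thus came from different peaks. With 1 matched shCtrl value at the canonical TSS, no group difference there was tested.

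CDKN2D (ENSG00000129355.7, chr19:10566460-10568979 in GRCh38, minus strand, 2 exons) encodes p19, an INK4 protein that appears as cells enter S phase. Its promoter had percentiles of 64.5 and 57.0 in shCtrl, 61.5 and 52.1 in shEZH2, 62.4 and 62.0 in shE2F1, 65.5 in shSUZ12, 57.9 with DMSO and 67.5 with GSK126. It was the most even of the 5, with a range of 52.1 to 67.5, and overlapped shCtrl in both knockdowns. Its local background was 8.37 to 12.7 times the most frequent value of the list.

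The shSUZ12 library, without a replicate, exceeded both shCtrl libraries at 4 of the 5 promoters, CDKN1A, CDKN1B, CDKN2C and CDKN2D, in a comparison in which 52.6% of promoters did. None of the 5 lay below both, against 19.2%. The differences from the shCtrl mean ran from 1.36 points for CDKN1C to 17.5 points for CDKN1B, and those of CDKN1A and CDKN2D were 4.34 and 4.74 points, or 1.17 and 1.00 points without shCtrl replicate 2. With GSK126, CDKN2C was 10.3 points and CDKN2D 9.57 points above DMSO, and the other 3 differed by less than 5 points. Taking 10 points as the limit, 1 of 5 was higher against 6.87% of promoters and 0 of 5 lower against 15.4%. Ranked by −log10 p, 3 of 5 were higher with shSUZ12 against 39.4% of promoters and 0 lower against 27.8%, and none of the 5 passed 10 points with GSK126, where 3.9% were higher and 12.9% lower. There is no replicate check for either comparison.

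The partners of the CDK inhibitors were followed at 16 promoters, of which 13 had a peak in all 9 lists and none was without any. With shEZH2, 5 of the 15 that could be compared were lower in both libraries and 2 higher. Those lower were CDK6, CCND1 and CCND3, which form the kinases that INK4 proteins bind, CCNE1, one of the cyclins of CDK2, and RBL1, an RB1 relative. By fold enrichment CDK6 and CCND1 ranked low in both groups, at mean percentiles of 1.83 ± 1.22 and 3.15 ± 2.84 in shCtrl and of 0.667 ± 0.0254 and 0.290 ± 0.318 in shEZH2, and CCND3 was at 66.7 ± 0.0790 and 59.5 ± 1.25. The CDK6 summit was 980 bp downstream of the start in shEZH2 replicate 2. In shEZH2 replicate 1 and both shCtrl lists it was 34 to 88 bp upstream, so the CDK6 values came from different peaks. Means went from 57.1 ± 15.0 to 36.4 ± 1.5 at CCNE1 and from 77.3 ± 5.75 to 60.2 ± 14.5 at RBL1. CCNA2 (83.9 ± 5.47 to 93.9 ± 0.204) and SKP2 (96.5 ± 1.57 to 98.0 ± 0.0668), the ligase subunit that targets p27, were higher. With shE2F1, 13 could be compared, RBL1 was lower at 62.8 ± 8.34, and CDK2, RB1 and SKP2 were higher, at 85.8 ± 1.02, 85.2 ± 1.49 and 99.2 ± 0.525. These counts sit beside backgrounds of 29.7% and 10.6% for shEZH2 and of 17% and 19.2% for shE2F1. Ranked by −log10 p, 6 were lower and 0 higher with shEZH2, so that CCNA2 and SKP2 lost their call and RB1 was added to those lower, against 42.2% and 4.15% of promoters. With shE2F1, 1 was lower (RBL1) and 2 higher (CDK2 and E2F1), without RB1 and SKP2, against 22.8% and 12.4%.

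Within 100 kb of the start sites, 117 peak regions were found, peaks of the 9 lists being merged where they overlapped by 1 bp. CDKN1A had 33, CDKN1C 29, CDKN1B 24, CDKN2D 22 and CDKN2C 9. The share with a peak in all lists was 53.8%, next to 34.2% of all 118719 regions. The windows are centred on start sites, and this share was not computed for the windows of all genes. The loci thus differed in density, with CDKN1A above 97.3% of genes, as a description of this line, since the counts include the promoters of neighbouring genes.

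**Figure D5:**
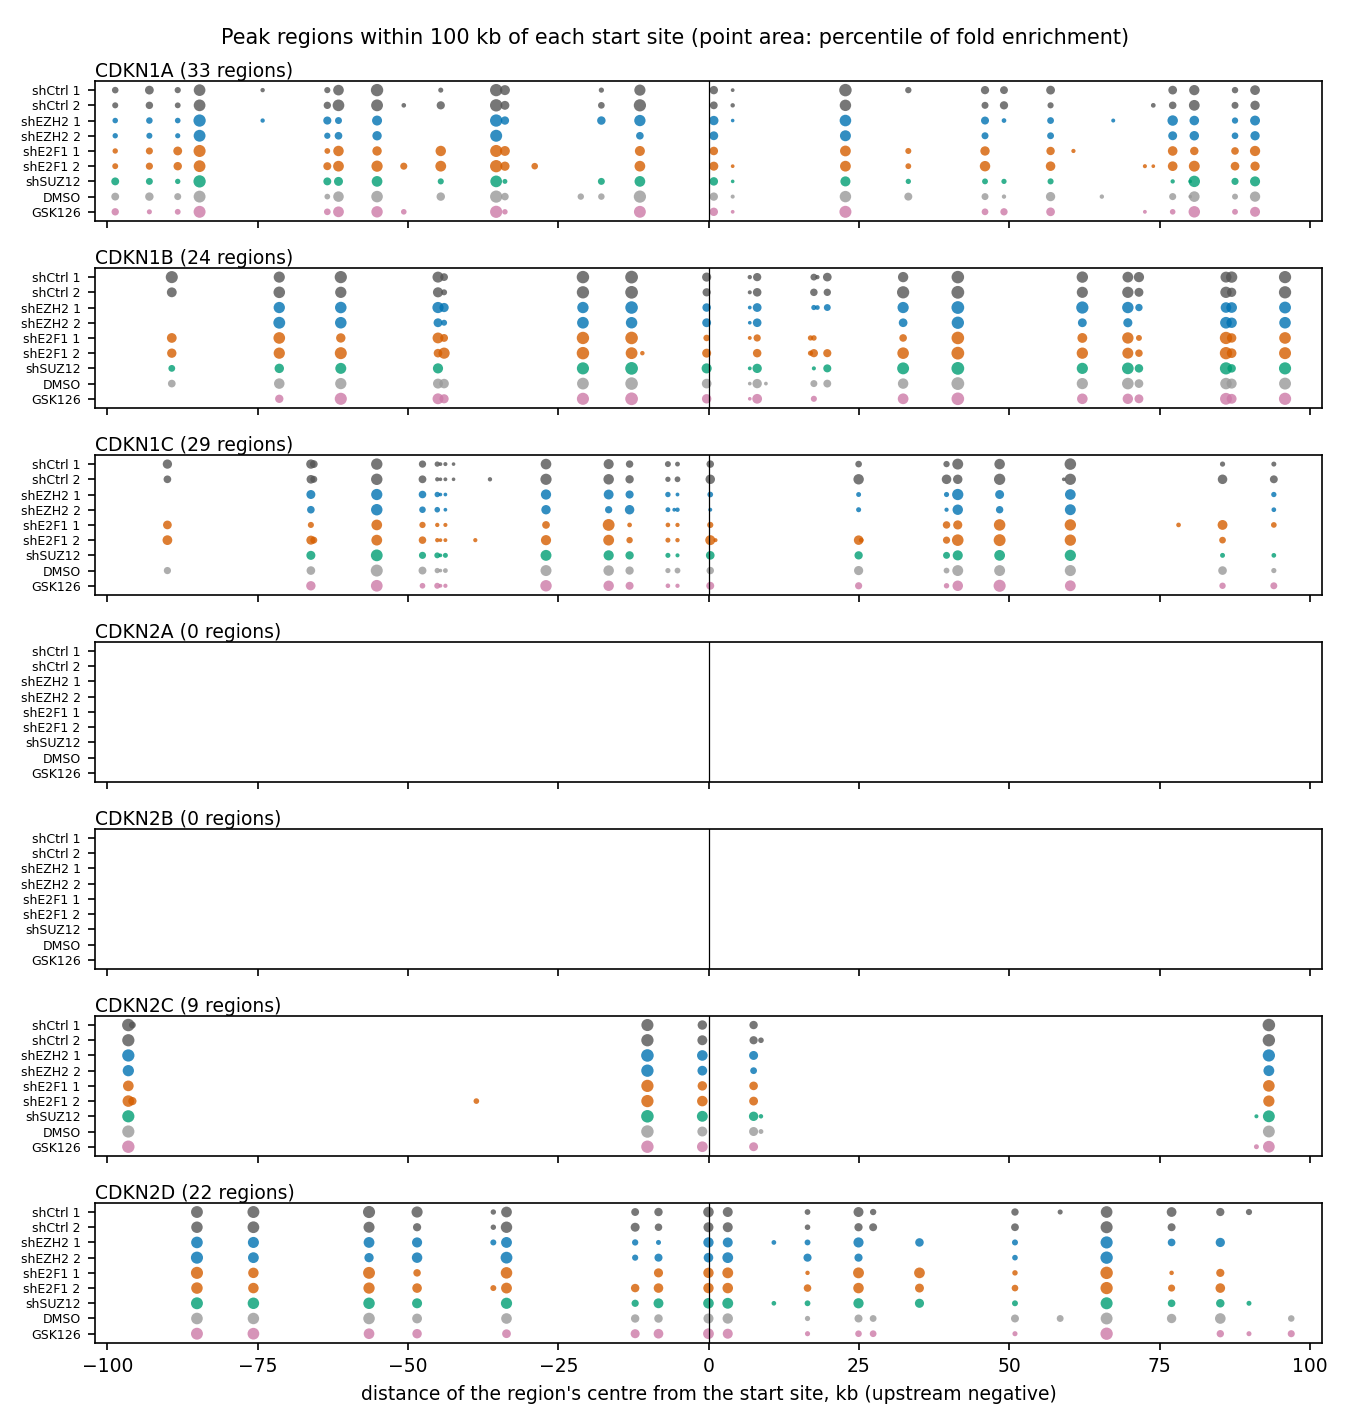
Peak regions within 100 kb of each start site in each list, by distance of the region's centre in kb (upstream negative), with point area for the percentile of fold enrichment. Columns of points in all 9 rows are regions shared by all lists, and CDKN2A and CDKN2B have no point.

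Beyond 1 kb from its canonical start, each of the 5 genes had a region above its promoter in median percentile of fold enrichment. The windows held 9 to 33 regions, so that the highest of many was set against 1 promoter. The share of all genes with such a region was not computed. For CDKN1A it was chr6:36642962-36643819, 35.3 kb upstream and outside canonical protein-coding transcripts, with a median percentile of 89.6 and a range of 81.7 to 92.0. For CDKN1B it was chr12:12758402-12759221, 41.4 kb downstream, with a median of 98.6. For CDKN1C it was chr11:2940249-2941664, 55.2 kb upstream and 11.5 kb from the start of PHLDA2, with a median of 77.3. For CDKN2C it was chr1:50959292-50960849 (median 91.7), which holds the start of FAF1 and also the farthest upstream annotated start of CDKN2C. For CDKN2D it was the promoter of KEAP1 (median 88.6). All 5 regions had a peak in every list, and were taken as the highest of their window. Tags were not compared for these regions, and by tags the CDKN1A promoter stood near the top of every list.

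Gains and losses of whole peaks were counted over the same windows. A region gained with a knockdown has a peak in both of its lists and in neither shCtrl list, and a lost region the reverse. With shEZH2, 0 of 101 regions were gained and 7 lost, against 0.888% and 7.17% of all regions. With shE2F1, 2 of 108 were gained and 4 lost, against 2.88% and 3.77%. These shares were close to those of all regions. With shSUZ12, 4 of 101 were gained and 6 lost (6.65% and 8.54% of all regions), and with GSK126 4 of 95 were gained and 13 lost (8.61% and 17%), each from a single list.

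Of the 7 regions lost with shEZH2, 4 lay around CDKN1C, whose window held 29 of the 117 regions. Ordered by the lower of the 2 shCtrl percentiles, the first was near CDKN1B instead, chr12:12627854-12628351 in an intron of CREBL2, at percentiles of 87.5 and 55.3 in shCtrl. That region had a peak in both shE2F1 lists, with DMSO (30.5) and in shSUZ12 (22.0), and in none of the shEZH2 lists or GSK126. Next were chr11:2975640-2975900 in an intron of NAP1L4, at 48.4 and 30.3, and chr11:2951296-2951563 at an exon of NAP1L4, at 31.2 and 23.4. The intron region also had no peak in shSUZ12 or GSK126. Outside shCtrl, the exon region had a peak only in shE2F1 replicate 2 (23.3), and so none with DMSO, GSK126 or shSUZ12. Regions at chr11:2928055-2928324, 1231 bp from the start of PHLDA2, and at chr19:10541504-10541737, 27.4 kb downstream of CDKN2D, were lost with shEZH2 and with shE2F1, comparisons that share the shCtrl libraries, and had no peak in shSUZ12 either. The first was among the weakest peaks of shCtrl (percentiles of 0.0363 and 0.0985) and had no peak with DMSO or GSK126, and the second was at 18.0 and 33.0 in shCtrl, 22.0 with DMSO and 21.4 with GSK126.

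The 2 regions gained with shE2F1 were chr19:10533568-10534265, 35.1 kb downstream of CDKN2D, at percentiles of 67.3 and 43.9, and chr12:12734212-12734411, 16.9 kb downstream of CDKN1B, at 9.74 and 9.12. The first also had a peak in shEZH2 replicate 1 (39.4) and in shSUZ12 (46.5), so that it was missing from both shCtrl lists, from shEZH2 replicate 2 and from both drug-arm lists. Those lost with shE2F1 included chr6:36727608-36728055 at an exon of RAB44, at 32.4 and 36.4 in shCtrl, and chr6:36660636-36661127, 17.8 kb upstream of CDKN1A, at 9.41 and 20.9.

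The promoters most like each CDK inhibitor promoter over the 9 lists, by mean absolute difference in percentile among 12025 promoters, were those of GNAQ for CDKN1A (4.01 points), SFXN3 for CDKN1B (3.85), FGD1 for CDKN1C (5.00), DIDO1 for CDKN2C (4.82) and KLF16 for CDKN2D (2.64). FGD1 had 32.9 and 36.3 in shCtrl, 13.1 and 7.79 in shEZH2, and 20.9 and 56.5 in shE2F1. It was chosen as the closest over these same 9 libraries, and it still differed from CDKN1C in shCtrl replicate 2 (36.3 against 50.7) and with DMSO (18.6 against 28.0).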

How the data were processed

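ATAC-seq peak lists of 9 MDA-MB-231 libraries were grouped by their deposited labels. The authors aligned reads with Bowtie2, keeping up to 4 alignments per read, and shifted them by +4 and −5 bp for Tn5. The peak caller and its settings are not given in the sources used here. The deposited columns used were the fold enrichment (a ratio to local background) and the −log10 of p and of q, per library and not pooled. Coordinates fit GRCh38, named in the submitters' processing notes. Total reads are not in the lists. Tags at summits and local backgrounds were recovered from fold enrichment and −log10 p under a Poisson model for 100% of peaks, to within 0.00118 in −log10 p.

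Percentiles are mid-ranks within a list. Promoters reach 1 kb to each side of the start of Ensembl canonical transcripts (GENCODE 44), and regions merge peaks overlapping by 1 bp. Groups of 2 libraries were called different where their values did not overlap, likewise the single shSUZ12 library where it lay outside both shCtrl libraries, and GSK126 against DMSO at 10 points. The genes, the pathway list and the tests were chosen with earlier results of these data known. Named besides the genes and their list are the strongest shared region beyond 1 kb of each gene, up to 3 gained and 3 lost regions per knockdown, the edges of the stretch without peaks and the most alike promoter. The regions lost with both knockdowns, the CpG-rich class, FGD1's values and the tag scales were singled out after their values were seen. Alternatives were other ranks, windows, list lengths, a −log10 q of at least 5, other overlaps, shCtrl instead of DMSO, and omission of single replicates. Scripts were checked on simulated peak lists. Analyses used Python 3.11.15, numpy 2.4.6, pandas 2.3.3, scipy 1.17.1 and matplotlib 3.10.9.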

Additional observations from a re-analysis of the deposited data

How the results depend on the processing

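Presence in all 9 lists was found for 5 of 7 genes under every alternative. Ranked by −log10 p, 2 promoters were lower with shEZH2, 0 higher with shE2F1 and 0 higher with GSK126, against 42.2%, 12.4% and 3.9% of all promoters. With a −log10 q of at least 5, 2 were higher with GSK126, against 8.06% of all promoters, and 2 regions were lost with shE2F1. In lists of the same length, 2 promoters were higher with shEZH2 (23.9% of all promoters) and 2 with GSK126 (13.4%), and 1 region was gained with shEZH2. With a window of 2 kb, 0 were lower with shE2F1, against 17.3% of all promoters. CDKN2C then differed by 4.45 points in the other direction, because its upstream summit counted in every list. Ranked by summit tags, a choice made after seeing the data, 2 were lower with shEZH2, 0 higher with shE2F1, 0 higher with GSK126 and 2 higher with shSUZ12, where CDKN2D differed by −0.159 points. The shares of all promoters were 46.3%, 12%, 2.3% and 37.4%, in that order. Summit tags over the most frequent background of the list, also chosen after seeing the data, put 5 lower and 0 higher with shEZH2, 4 lower and 0 higher with shE2F1, and 2 higher with shSUZ12. On that scale 80.6% of all promoters were lower and 0.539% higher with shEZH2. The shares were 78.9% and 1.05% with shE2F1, and 47.3% were higher with shSUZ12. The peak with the summit nearest to the TSS, added as well, changed no count.

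Replicate numbers did not pair the libraries: differences between replicates 1 and 2 correlated across 12026 promoters, which are not independent, at 0.0571 (shCtrl and shEZH2) and 0.0544 (shCtrl and shE2F1). With the replicate block, 2 promoters were lower with shEZH2, CDKN1C and CDKN2D, against 39.9% of all promoters, and the block changed no other count. Leaving out 1 replicate at a time gave 1 to 3 promoters lower with shEZH2 (3 without shCtrl replicate 2, 2 without shEZH2 replicate 1) and 1 to 2 higher (2 without either shCtrl replicate or shEZH2 replicate 2). It gave 1 to 3 lower with shE2F1 (3 without shCtrl replicate 2 or shE2F1 replicate 2), 1 to 2 higher (2 without shCtrl replicate 1 or shE2F1 replicate 1), and 0 to 1 lower (1 without shCtrl replicate 1) and 4 to 5 higher with shSUZ12. Regions gained with shEZH2 were 0 to 3 (1 without shEZH2 replicate 1, 3 without replicate 2) and those lost 7 to 17 (12 and 11 without shCtrl replicates 1 and 2, 17 without shEZH2 replicate 1). With shE2F1, 2 to 9 were gained (9 and 4 without its replicates 1 and 2, 4 without shCtrl replicate 1) and 6 to 11 lost (11 without its replicate 2, 7 and 8 without shCtrl replicates 1 and 2). A group of 1 library meets the rule more easily than 2, and the shares of all promoters rose as well. They were 42% to 53.8% lower and 18% to 26.5% higher with shEZH2, and 27.3% to 44.9% lower and 29.6% to 43.8% higher with shE2F1. With shSUZ12 they were 31.5% to 35.6% lower and 64.4% to 68.5% higher. The region counts are given without the shares of all regions, and are not read as shifts at these genes. CDKN1C with shEZH2, CDKN1A with both knockdowns and CDKN2C with shE2F1 kept their call without each replicate, which was fixed in advance. Groups that do not overlap cannot come to overlap when a library is left out. The CDKN2C call still sets different peaks side by side. The stretch without peaks measured 4.92 Mb in each shCtrl list, 4.94 Mb in each shEZH2, shE2F1, DMSO and GSK126 list, and 4.92 Mb when a region needed a peak in at least 2 lists. The cause of the other changes was not tested. Depth limits the weakest peaks: CDKN1C in shEZH2 replicate 2 rests on 26 tags.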
